A study of Mus musculus with 3 samples.

Results

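A set of 6 genes of bone morphogenetic protein (BMP) signalling was followed through fusion of the mouse secondary palate. They are the ligand genes Bmp4 and Bmp7, the receptor gene Bmpr1a and the target genes Id1, Id2 and Id3. They were chosen by symbol in the annotation of the array, which gave 7 probe sets for these 6 genes, 2 for Bmp4 and 1 for each of the others, out of 8251 genes measured. The RNA was from the medial edge epithelium, the layer at the tips of the palatal shelves. It was taken at embryonic day 13.5 from embryos of CF-1 mice and freed with the enzyme Dispase II. The 0 h sample was unfused, and its label gives no culture. The 12 h sample was fused tissue from shelves held together in culture for 12 h after first contact. The 24 h sample was fused tissue after 24 h, labelled as undergoing epithelial-mesenchymal transformation. Each time point had 1 array, so the differences below have neither a replicate check nor a p-value. Fusion and culture cannot be told apart in any comparison with 0 h. The labels name no mutant or drug, and the sources used here do not say how many embryos were pooled.

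BMP ligands bind pairs of type I and type II serine/threonine kinase receptors, which phosphorylate Smad1, Smad5 and Smad9. These join Smad4, enter the nucleus and switch on target genes, of which the Id genes are among the most direct. Id proteins are helix-loop-helix proteins without a DNA-binding region; they pair with E proteins and keep them off DNA, and they are known for holding cells in a proliferating, undifferentiated state. In the developing palate Bmp4 is known mainly from the mesenchyme, and mice that lack Bmpr1a in the facial primordia develop cleft palate.

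The deposited signals were scaled so that the 3 arrays had 1 common trimmed mean, and scaled signals at or below 13.5, the floor, were treated as not measured. A ratio with 1 array at the floor is a bound and is written as at least N-fold. A gene was called when its scaled, floored signals differed at least 2-fold. The comparison of 12 h with 0 h is called the first step, that of 24 h with 12 h the second step and that of 24 h with 0 h the whole course, and every log2 ratio is the later over the earlier signal. Without replicates the only gauge of error was the disagreement between probe sets of 1 gene. Its SD of the log2 ratio was 1.24 in the first step, 0.82 in the second and 1.07 over the whole course. This SD was taken within the 2 arrays of each comparison, so it leaves out variation between repeated samples, amplifications and arrays. The scaling left the median log2 ratio over all genes at -0.21, 0.17 and -0.08 in that order. Control 3′ to 5′ signal ratios, a measure of transcript integrity and of truncation in amplification, were 0.828, 14.9 and 12.6 for Gapdh and 1.02, 11.9 and 2.97 for Actb at 0, 12 and 24 h; their part in the results was not tested.

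Tissue markers were read beside these genes. Of 13 epithelial markers, 10, 8 and 10 lay above the floor at 0, 12 and 24 h, with summed scaled signals of 1104, 1627 and 1858 but deposited ones in the opposite order (1632, 1492 and 1371). Without Dsp the other 12 summed to 947, 888 and 1447 after scaling. In the first step 3 of 10 epithelial markers with a ratio were called higher and 2 lower, with a median log2 ratio of -0.46. Of all genes, 17.7% were called higher and 27.3% lower in this step, and 18.8% and 12.0% in the second. In the second step 6 of 10 epithelial markers were higher, among them Krt17 (4.83-fold) and Krt8 (4.38-fold), and 2 lower, Epcam and Trp63. Their median log2 ratio was then 1.87, beside 0.17 over all genes. The basal keratin genes Krt5, Krt14 and Krt15 were at the floor on all 3 arrays, whereas Krt8, Krt17, Krt18, Krt19 and Cdh1 were above it. Epcam, Dsp and Trp63 were above it too, Trp63 with scaled signals of 75.9, 230 and 67.4 at 0, 12 and 24 h. Cldn4 and Cldn7 were at the floor at 12 h alone. Of 11 mesenchymal markers, 11, 9 and 10 lay above the floor, with scaled sums of 4123, 6655 and 7920 and deposited sums of 6098, 6101 and 5842, so transcripts known from palate mesenchyme were present in all samples. Without Col1a2 the other 10 summed to 3834, 4944 and 4696 after scaling. The 11 mesenchymal markers went opposite ways in the first step, with 4 called higher, 5 lower and a median log2 ratio of -0.24. Twist1, Col1a1, Col1a2 and Col3a1 were higher, though the second probe set of Col1a2 was lower (log2 ratio -1.21). Mfap2 was 37.8-fold, Prrx2 19.99-fold, Twist2 12.1-fold and Dlk1 5.02-fold lower, and Prrx1 was lower by at least 2.42-fold. In the second step 4 of 10 mesenchymal markers with a ratio were called higher and 0 lower, with a median log2 ratio of 0.82. These 4 were Prrx2 (22.8-fold), Mfap2 (8.31-fold), Twist2 (5.62-fold) and Dlk1 (5.26-fold). The scaled sum of 5 blood cell genes was 1575 at 12 h and 1496 at 24 h, against 6458 at 0 h. The 7 endothelial markers summed to 280, 531 and 553 after scaling but to 414, 487 and 408 as deposited at 0, 12 and 24 h. Without Cdh5 the other 6 summed to 228, 267 and 393 after scaling. Scaled sums of 8 macrophage markers were 185, 608 and 431, and without Ctss the other 7 summed to 143, 100.4 and 153. Scaled sums of 4 bone and cartilage markers were 86.1, 703 and 376, of which Ibsp made up 681 at 12 h. The other probe set of Ibsp was lower in the first step (log2 ratio -0.98), and Alpl was below the floor at 12 h, against 53.9 at 0 h. The macrophage genes Adgre1 and Lyz2 and the cartilage gene Col2a1 were at the floor on all 3 arrays. The part of the markers in the results was not tested, and in such tissue samples fewer cells of a type and less RNA per cell cannot be told apart.

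Of the ligand genes, Bmp7 had a lower signal after fusion, and the 2 probe sets of Bmp4 disagreed. Bmp7 encodes a ligand of many embryonic epithelia. Its scaled signals were 69.3, 5.24 and 11.9 at 0, 12 and 24 h, so it was above the floor in unfused tissue alone. It was at least 5.12-fold lower in both cultured samples than in the unfused one, and it has no ratio for the second step, where both signals were below the floor. The bound shrinks to a log2 ratio of -0.98, just under 2-fold, when the floor is set at the 60th percentile.

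Bmp4, a ligand close to the Drosophila decapentaplegic protein, had a brighter probe set with deposited signals of 129.7, 30.2 and 48.7 at 0, 12 and 24 h. After scaling these were 87.7, 32.9 and 66.02, which is 2.66-fold lower in the first step, 2.004-fold higher in the second, just past the threshold, and 1.33-fold lower over the whole course. Its other probe set, whose suffix marks relaxed design rules, had deposited signals of 22.7, 50.6 and 41.5, and scaled signals of 15.4, 55.2 and 56.3. That set was 3.60-fold higher in the first step, level in the second (log2 ratio 0.03) and 3.67-fold higher over the whole course. The 2 sets thus went opposite ways in the first step, 9.57-fold apart, or 3.26 on the log2 scale against 1.75, the SD of a difference between probe sets. Among 353 genes called at 12 h by a measured brightest set and with a measured second set, 15.9% had a second set that was at least 2-fold different in the opposite direction. With the mean of both sets, the log2 ratio of Bmp4 in the first step was 0.22. No direction is given for Bmp4 on this ground.

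Bmpr1a, the type I receptor that binds Bmp4 with high affinity, had no call in any comparison after scaling. Its scaled signals were 44.8, 49.1 and 38.2 at 0, 12 and 24 h. Its log2 ratios were 0.13 in the first step, -0.36 in the second and -0.23 over the whole course, each smaller than the SD between probe sets. The signal at 24 h was the lowest under each scaling tried. With the values as deposited the ratio of the first step turned to -0.56, and that of the whole course was -1.23, past 2-fold.

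**Figure D1:**
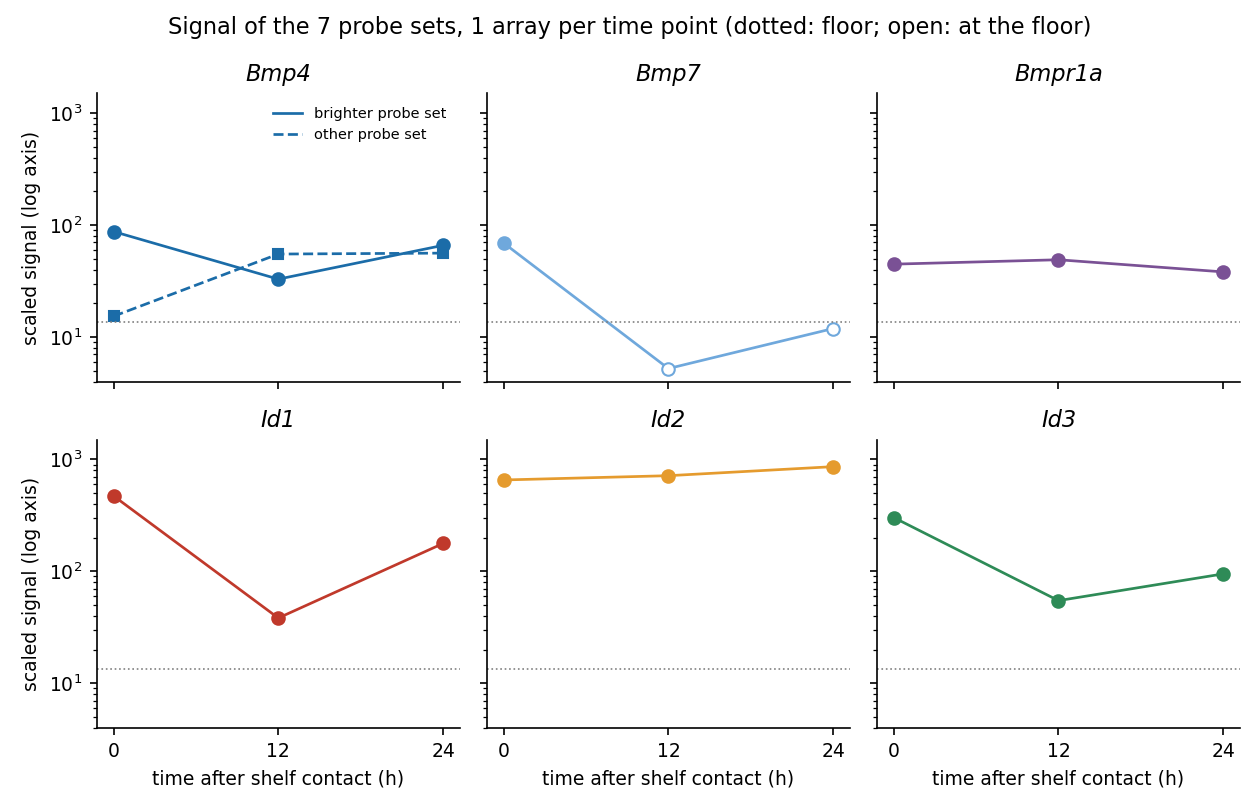
Scaled signal (log axis) of the 7 probe sets against time after shelf contact (h), 1 array per point, with the floor of 13.5 as a dotted line and open symbols for values at the floor. Id1 and Id3 have their lowest value at 12 h, Bmp7 is above the floor at 0 h alone, Id2 and Bmpr1a stay nearly level, and the 2 probe sets of Bmp4 cross between 0 h and 12 h.

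Of the Id genes, Id1 and Id3 were called lower in the first step and Id2 was not. Id1 had deposited signals of 698.3, 35.1 and 130.9 at 0, 12 and 24 h, and scaled signals of 472, 38.3 and 177. It was 12.3-fold lower in the first step (log2 ratio -3.62) and 4.64-fold higher in the second, which left it 2.66-fold lower over the whole course. These differences were 2.92, 2.71 and 1.32 times the SD between probe sets, which leaves out variation between repeated samples. In all, 57 of 6379 genes (0.894%) had a log2 ratio as low as that of Id1 in the first step, and 143 of 6141 (2.33%) one as high in the second.

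Id3, which like the other Id genes encodes a helix-loop-helix protein, had deposited signals of 447.3, 50.2 and 70.0. Its scaled signals were 302, 54.8 and 94.9 at 0, 12 and 24 h. It was 5.52-fold lower in the first step (log2 ratio -2.47), a value that 338 of 6379 genes (5.30%) reached or passed. It was 1.73-fold higher in the second step, which is under the 2-fold rule, and 3.19-fold lower over the whole course. The log2 ratios of Id1 and Id3 lay 1.16 apart in the first step and 0.26 apart over the whole course, both less than the SD of a difference between probe sets (1.75 and 1.51). In the second step they lay 1.42 apart, against an SD of 1.15.

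Id2, which can also bind the retinoblastoma protein, did not share this course. Its deposited signals were 968.6, 655.8 and 635.4, and its scaled signals 655, 715 and 861 at 0, 12 and 24 h. The log2 ratios of 0.13 in the first step, 0.27 in the second and 0.40 over the whole course were each well under the 1 needed for a call. The ratio of the first step was below 0 with the values as deposited (-0.56) and after quantile normalization (-0.47). In the first step the ratios of Id1 and Id2 were 13.5-fold apart and those of Id3 and Id2 6.03-fold apart, contrasts that no common scaling factor alters. They amount to 3.75 and 2.59 on the log2 scale, against an SD of a difference between probe sets of 1.75. Quantile normalization, which scales each part of the signal range differently, left them 8.41-fold and 3.57-fold apart, or 3.07 and 1.84 on the log2 scale against an SD of 1.65. Id4, the fourth Id gene, belongs to the wider pathway list and was named after its values were seen. It had scaled signals of 130, 279 and 291 at 0, 12 and 24 h, 2.14-fold higher in the first step and 2.23-fold higher over the whole course.

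The 250 bases before the start sites of Id3 and Id2 are shown because these genes took different courses at 12 h. They come from RefSeq, build GRCm38.p6, whose promoter table matched 4 of the 6 genes (Bmp4, Bmpr1a, Id2 and Id3). Capitals mark GGCGCC, a GC-rich word found in BMP-responsive Smad sites, and CAGAC or its reverse complement GTCTG, the core of the Smad-binding element. The Id3 stretch is chr4:136143572-136143821, plus strand, and the Id2 stretch chr12:25096093-25096342, minus strand, each written 5′ to 3′ along its gene.
Id3: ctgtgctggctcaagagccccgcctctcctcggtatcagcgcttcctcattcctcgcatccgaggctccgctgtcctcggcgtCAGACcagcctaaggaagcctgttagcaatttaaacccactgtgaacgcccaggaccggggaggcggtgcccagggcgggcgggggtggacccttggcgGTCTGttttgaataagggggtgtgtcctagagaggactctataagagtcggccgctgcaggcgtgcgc
Id2: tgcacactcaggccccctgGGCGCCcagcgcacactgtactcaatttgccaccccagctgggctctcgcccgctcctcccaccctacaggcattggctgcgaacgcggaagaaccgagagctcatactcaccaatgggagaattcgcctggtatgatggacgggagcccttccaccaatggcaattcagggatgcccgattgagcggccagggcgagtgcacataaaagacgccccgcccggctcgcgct
Id3 held CAGAC or GTCTG at 2 places, 167 and 68 bases before the start site by their first base, and no GGCGCC. Id2 held GGCGCC at 1 place and neither form of CAGAC. Of 32851 promoter windows of this length, 42.2% held CAGAC or GTCTG and 9.59% held GGCGCC. The words searched, on both strands, do not overlap each other. Both stretches were 62.8% G and C, against a median of 52.4% over all windows. The Bmpr1a window held GGCGCC at 1 place and the Bmp4 window held neither word. A word match is a description of the sequence, not evidence of a bound site.

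Counted together, 4 of the 6 genes (Bmp4 by its brighter set, Bmp7, Id1 and Id3) were called lower in the first step and 0 higher. Without Bmp4, for which no direction is given, 3 of 5 were called lower. Over all genes with a ratio, 27.3% were called lower and 17.7% higher. In the second step, 2 of the 5 genes with a ratio (Id1 and, at the threshold, Bmp4) were called higher and 0 lower, beside 18.8% of all genes higher and 12.0% lower. Without Bmp4, 1 of 4 was called higher. Over the whole course, 3 of 6 (Bmp7, Id1 and Id3) were called lower and 0 higher, beside 17.7% of all genes lower and 14.5% higher. With a 3-fold rule, 3 of the 6 genes were called in the first step, 1 in the second and 2 over the whole course, beside 24.8%, 12.0% and 14.4% of all genes. The comparisons share arrays in pairs, so their counts are not independent.

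**Figure D2:**
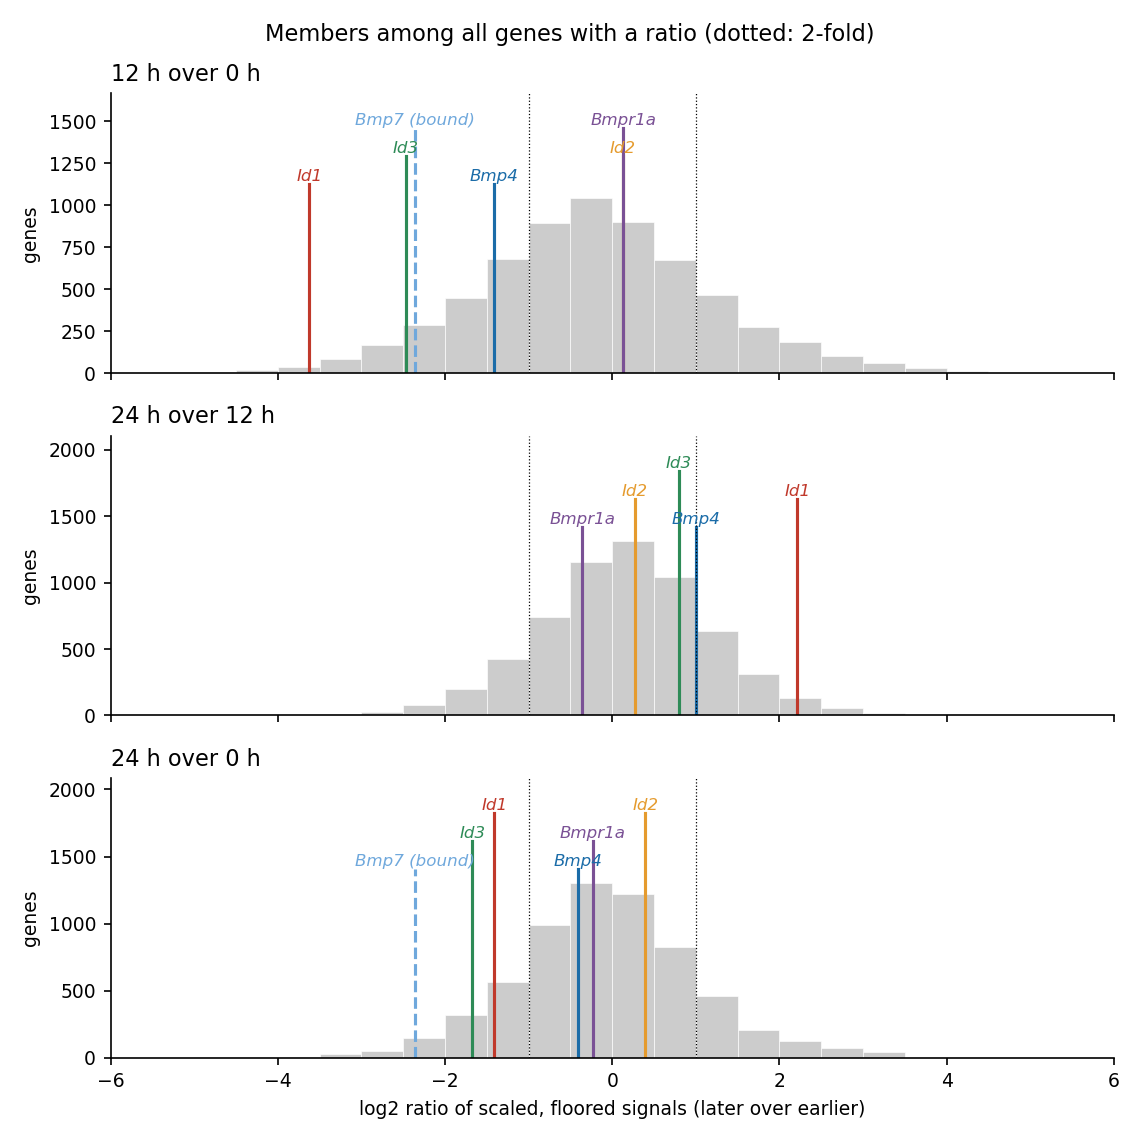
Number of genes (grey bars, bins of 0.5) by log2 ratio of scaled, floored signals, later over earlier time point, with each of the 6 genes as a coloured line, dashed where the ratio is a bound, and 2-fold as dotted lines. Id1 lies in the low tail (-3.62) in the top panel and in the high tail (2.21) in the middle one, while Id2 and Bmpr1a, which overlap at 0.13 at the top, lie near the middle of all genes.

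Calls went both ways among the other pathway genes, in proportions that depended on the scaling. Of 61 other BMP pathway genes listed, 47 were on the array and 34 had a ratio in the first step, of which 8 were called higher and 12 lower. Of all genes with a ratio, 17.7% were called higher and 27.3% lower in this step. The median log2 ratio of the listed genes was -0.58, beside -0.21 over all genes. In the second step, 8 of 33 were higher and 6 lower, beside 18.8% and 12.0% of all genes (median 0.20, beside 0.17). Over the whole course, 5 of 35 were higher and 11 lower, beside 14.5% and 17.7% of all genes (median -0.25, beside -0.08). With the values as deposited, 2 listed genes were higher and 19 lower in the first step, beside 603 and 2984 of 6658 genes. They were 5 and 6 in the second step (beside 702 and 1078 of 5838) and 2 and 18 over the whole course (beside 296 and 3244 of 6574). Median scaling gave 8 higher and 8 lower in the first step (beside 1668 and 1172 of 6374 genes) and 5 and 6 in the second (beside 808 and 1112 of 6236). Quantile scaling gave 6 and 10 (beside 1396 and 1334 of 6371), and 5 and 5 (beside 890 and 859 of 6218). Of 26 calls, the largest each way in each comparison and those of Id4, 6 fell under 2-fold with another scaling (Twsg1, and Furin, Smad7 and Id4, some in more than 1 comparison) and 0 changed sign.

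Among 8 other ligand genes, the number at the floor was 6, 7 and 6 at 0, 12 and 24 h. Bmp6, which acts in keratinocyte differentiation and iron balance, was the only one above the floor on all 3 arrays, with scaled signals of 55.7, 27.5 and 56.7. This holds for its brighter probe set. The other probe set of Bmp6 was above the floor at 0 h alone, with a bound of -0.36 on the log2 ratio of the first step. Of 6 other receptor genes, Acvr2b, a type II receptor of activins and BMPs, had scaled signals of 113, 9.05 and 55.0. It was at least 8.35-fold lower in the first step, and higher in the second by at least 4.07-fold. Acvr2a, its close relative, went the other way, with scaled signals of 69.9, 146 and 46.8 and a 3.11-fold lower signal in the second step. Acvrl1, an endothelial type I receptor, had scaled signals of 73.4, 23.6 and 80.1 and was 3.40-fold higher in the second step. Other probe sets of Acvr2a and Acvrl1 gave the same direction in the second step with ratios under 2-fold. Bmpr1b, the other classical BMP type I receptor, was at the floor on all 3 arrays.

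Secreted modulators also differed in sign. Nbl1, a BMP antagonist of the DAN family, had scaled signals of 77.6, 21.5 and 149 at 0, 12 and 24 h and was 6.92-fold higher in the second step. Twsg1, which binds BMPs together with chordin, was 2.35-fold higher at 12 h than at 0 h, with scaled signals of 552 at 12 h and 234 at 0 h. Furin, a protease that cleaves BMP precursors, was 2.22-fold higher in the first step and 2.67-fold higher over the whole course. Fstl1, a follistatin-like glycoprotein, was 2.30-fold lower at 24 h than at 12 h.

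Smad1 and Smad4 went the opposite way to Id1 and Id3 in the first step. Smad1 had scaled signals of 168, 2063 and 745 at 0, 12 and 24 h and was 12.3-fold higher in the first step, with its other probe set also higher. Smad4, the partner shared with TGF-beta signalling, had scaled signals of 72.8, 722 and 353 and was 9.92-fold higher at 12 h. Smad5 had scaled signals of 22.4, 9.16 and 17.4, below the floor at 12 h, and no call in any comparison. Among inhibitors, Smad6, which is itself induced by BMP signalling and blocks it, was 3.87-fold lower at 12 h than at 0 h (17.9 against 69.2). Smad7, an inhibitor of both TGF-beta and BMP receptors, was 3.90-fold higher in the second step and 3.52-fold higher over the whole course, with scaled signals of 44.7, 40.4 and 158.

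Of 7 other targets with a ratio in the first step, 3 were called lower and 1, Id4, higher. Over all genes with a ratio, 27.3% were called lower and 17.7% higher in this step. Junb, an AP-1 subunit that many signals besides BMP induce, had scaled signals of 243, 23.5 and 52.6 and was 10.4-fold lower at 12 h than at 0 h. Tbx2, a T-box repressor, was at least 10.8-fold lower at 12 h than at 0 h by the brightest of its 3 probe sets. Another of them gave a log2 ratio or bound of only -1.06 for the same step. Msx1, a homeobox factor of palate mesenchyme, had scaled signals of 290, 83.9 and 64.3 and was 4.51-fold lower at 24 h than at 0 h. In the second step its log2 ratio was -0.38, beside 2.21 for Id1. The E protein genes, whose products Id proteins bind, were Tcf3, Tcf4 and Tcf12. Tcf12 had scaled signals of 709, 311 and 272, and Tcf3 56.5, 38.5 and 15.6, 3.62-fold lower at 24 h than at 0 h. Tcf4 had scaled signals of 113, 101 and 160 and no call.

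**Figure D3:**
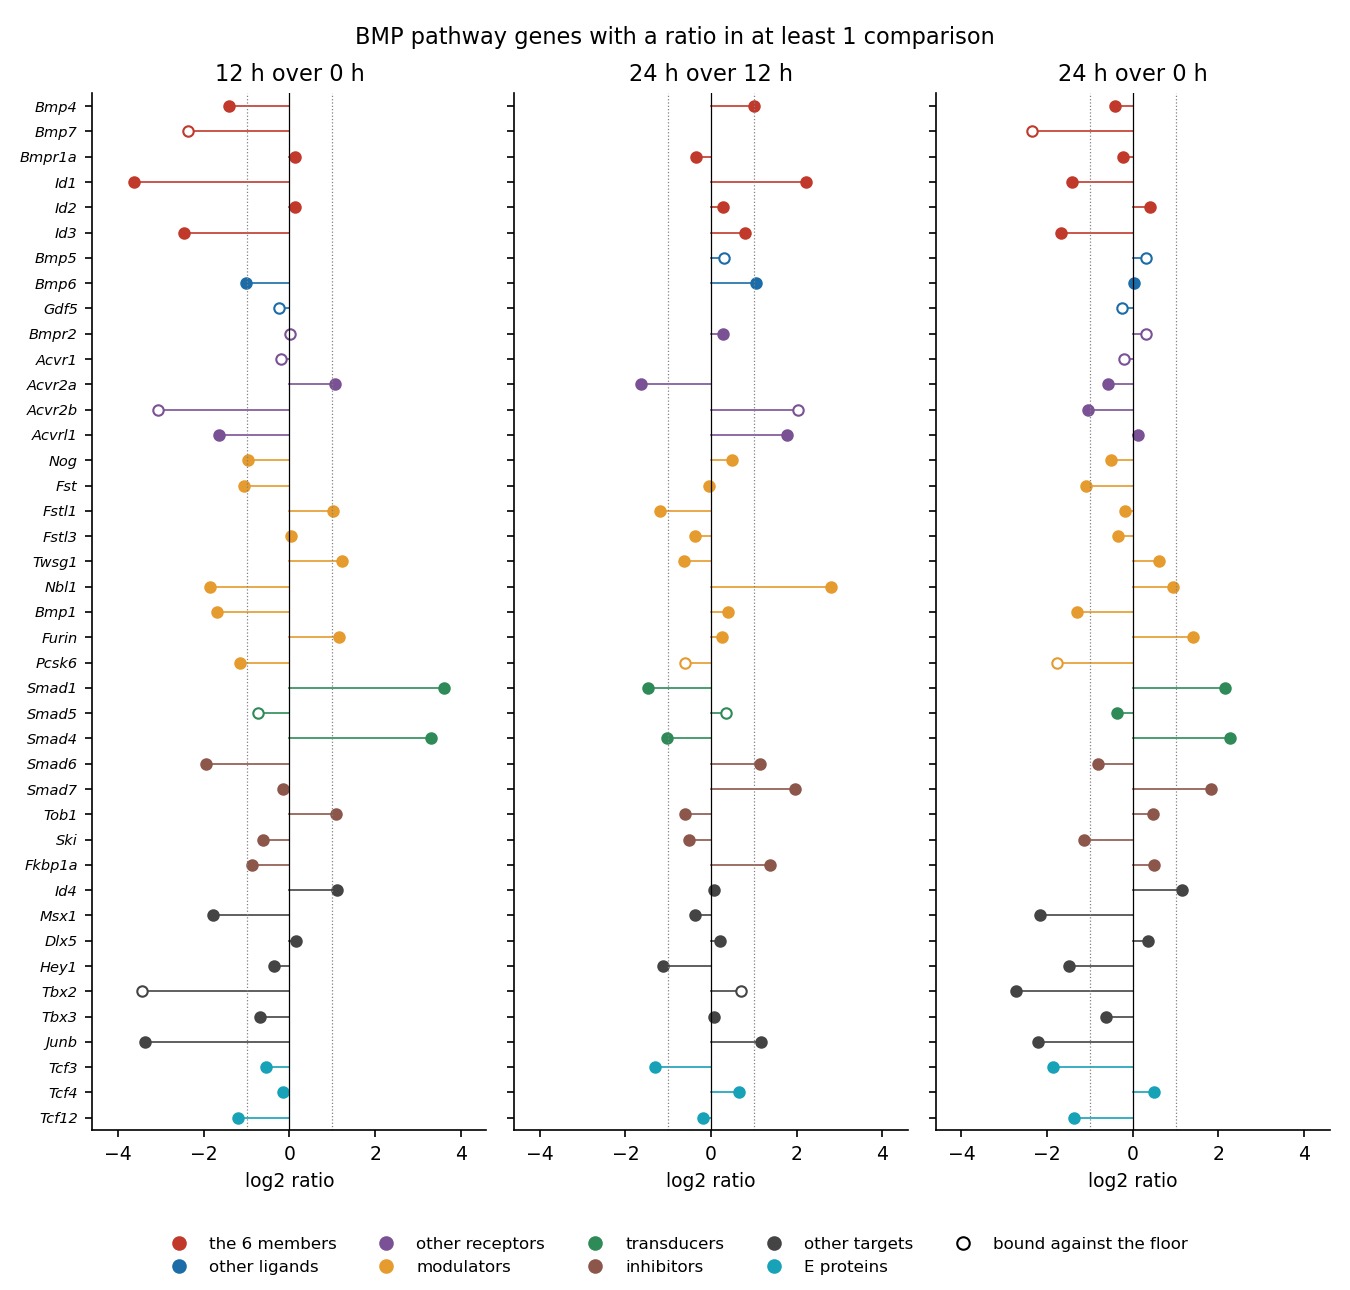
Log2 ratios (horizontal axes, later over earlier time point) of the 6 genes and of the listed pathway genes with a ratio in at least 1 comparison, coloured by role, with open circles for bounds against the floor and dotted lines at 2-fold. Smad1 (3.62) and Smad4 (3.31) lie far right in the left panel, where Id1 (-3.62), Junb (-3.37) and Tbx2 lie far left.

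The genes nearest in pattern were sought among 4681 others above the floor on all 3 arrays, by the Euclidean distance between log2 signals centred on their own mean over the 3 arrays. Such distances rest on 3 values per gene and carry no test. Maged1 (distance 0.08), Rcc2 (0.09) and Trim28 (0.17) were nearest to Id1, with Maged1 at scaled signals of 1056, 80.1 and 398 at 0, 12 and 24 h. Chrac1, Csrp2 and Ubr4 were nearest to Id3, at distances of 0.04 to 0.07. Id1 and Id3 were 1.07 apart; 201 genes lay nearer to Id1 than Id3 did, and 827 nearer to Id3 than Id1 did. The brighter Bmp4 set, at 0.957, was itself nearer to Id3 than Id1 was. Fam114a2, Dlst and Desi1 were nearest to the brighter Bmp4 set, Rfc1, Rxylt1 and Trim27 to Bmpr1a, and Ifna5, Sspo and Synpo to Id2, at distances of 0.01 to 0.03. Within a distance of 0.5 lay 31 genes for Id1 and 139 for Id3, against 631 for Bmp4, 799 for Bmpr1a and 922 for Id2.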

How the data were processed

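RNA was amplified with the RiboAmp kit, labelled (ENZO kit) and read on Affymetrix arrays, and Microarray Suite 5.0 and GeneSpring 6.0 are named for the analysis, per the labels' protocols. The deposited values are linear intensities, 1 per probe set, without detection calls; whether the authors scaled them is not stated in the labels. Their 2% trimmed means over 12422 probe sets other than 66 controls were 93.7, 58.1 and 46.8 at 0, 12 and 24 h.

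Arrays were scaled to the geometric mean of these trimmed means (factors 0.676, 1.09 and 1.36), floored at the pooled 40th percentile and taken to log2 with Python 3.11.15 and numpy 2.4.6. Of these probe sets, 10833 name 1 gene, 396 several and 1193 none; symbols were updated by gene identifier in RefSeq (GRCm38.p6) for 10817. The probe set of highest mean signal stands for its gene. A single array for each time point allows no test, and this number limits precision. The 6 genes, the pathway and marker lists and the rules were chosen with earlier results of these data known. Pathway genes named are Smad1, Smad4, Smad5, the E proteins and up to 4 of the largest calls each way per comparison; the 3 nearest genes in pattern are named for each of the 6 genes measured on all arrays. Named outside this rule, after their values were seen, were Id4, Bmp6, Bmpr1b and the tissue markers. The calculation was tested on simulated data built from the 0 h array. Changes were planted only in genes far above the floor, so the test did not cover signals near it.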

Additional observations from a re-analysis of the deposited data

How the results depend on the processing

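The processing was varied in 8 ways: scaling left as deposited, by the median or by quantiles; the floor at the 20th or 60th percentile, or none; probe sets of a gene averaged; and a 3-fold rule. For Id1, log2 ratios ranged from -4.31 to -3.17 in the first step, from 1.90 to 2.21 in the second and from -2.42 to -1.24 over the whole course. For Id3 they ranged from -3.16 to -2.01, from 0.48 to 0.79 and from -2.68 to -1.50. Bmp4 reversed in the first step, to 0.22, when its probe sets were averaged, and was -0.96 with median and -0.95 with quantile scaling. The number of the 6 genes called in the second step was 1 in place of 2 with all 3 other scalings. It was also 1 with the 60th percentile floor, averaged probe sets and the 3-fold rule, and 3 with the 20th percentile floor or none. All-gene calls, higher and lower, were 1157 and 737 of 6141 under the main setting. They were 702 and 1078 of 5838 as deposited, 808 and 1112 of 6236 by the median and 890 and 859 of 6218 by quantiles. The 60th percentile floor gave 660 and 547 of 4444, averaging 952 and 598 of 6159, and the 3-fold rule 455 and 281 of 6141. The 20th percentile floor gave 1624 and 1051 of 7497, and no floor 1904 and 1257 of 8251. Over the whole course the number of the 6 genes called was 5 in place of 3 without scaling, all lower. Of 6574 genes with a ratio, 3244 were then called lower and 296 higher. In the first step the number of the 6 genes called was 3 or 4 under each of the 8. All-gene calls, higher and lower, were 603 and 2984 of 6658 as deposited, 1668 and 1172 of 6374 by the median and 1396 and 1334 of 6371 by quantiles. The 20th percentile floor gave 1482 and 2193 of 7578, the 60th 878 and 1141 of 4781, and no floor 1683 and 2476 of 8251. Averaging gave 901 and 1552 of 6387, and the 3-fold rule 610 and 972 of 6379. The 3-fold rule called 10, 5 and 8 listed pathway genes in place of 20, 14 and 16, and the 60th percentile floor 9 in the second step. The pathway median of the second step turned to -0.25 without scaling, -0.13 with median and -0.037 with quantile scaling. In the first step it was -0.070 with quantile scaling, and over the whole course -0.98 without scaling. Fewer calls follow from the construction of the stricter rules; the cause of the other shifts was not tested. Scaling set the balance of all calls: in the first step 39.3% were upward, against 16.8% without scaling, 58.7% with median and 51.1% with quantile scaling. For the second step these shares were 61.1%, 39.4%, 42.1% and 50.9%, and for the whole course 45.0%, 8.36%, 55.5% and 51.1%. Bmp7 is limited to bounds by signals near the floor. No paired analysis was possible because each time point had 1 array.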
